A study of Schizosaccharomyces pombe with 4 samples.

Results

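The subject is the set of annotated snoRNA genes of fission yeast (Schizosaccharomyces pombe) and the small RNA reads that fall on them. The RefSeq annotation of the genome assembly ASM294v3 lists 66 genes with the feature or biotype snoRNA among its 12606 genes on chromosomes I, II and III, and each of the 66 was joined to every deposited region that overlapped it by 1 base or more. Small RNA was sequenced from cells growing exponentially in rich medium, with 2 libraries of wild type (WT) and 2 of the genotype ABP1d, and the labels name no other allele and no treatment. ABP1 is a CENP-B homolog of fission yeast, and the title of the series ties it to the repression of cryptic transcription at Tf2 elements and rRNA gene repeats. Each strain has its own region list, and a comparison table holds 4012 windows with 1 RPKM value per strain (reads scaled to the length of the window and to the authors' total), pooled over the libraries of the strain. RPKM multiplied back by length gave whole reads, against totals of 23817270 in ABP1d and 14466014 in WT.

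Of the 4012 windows, 45 lay on snoRNA genes. They touched 37 of the 66 genes, or 34 with each window counted on 1 gene, and left 29 without a window. The share over all 12606 genes was not computed, and nothing is read from the count. Of the 66 genes, 7 are annotated as primary transcripts from which snoRNAs are cut, and the other 59 stand for the snoRNAs themselves, of which 32 had a window. A gene without a window is not known to lack reads, since the highest deposited p in the table is 0.0494. Each strain has a single pooled value, so no difference below could be set against the spread between libraries. Every interval is an exact 95% binomial interval on reads and covers counting error only. Since windows were listed for a low deposited p, 0 of the intervals of snoRNA windows include 1, and an interval on one side of 1 is no support for a direction. The files carry no strand, so reads of a snoRNA and of a gene on the opposite strand cannot be told apart; among the genes described, snu3, snoR47, sno20, snR10, snoZ16, snr79, snoR69, sno52, snR90, snR92, snR51b, snoR02, SPNCRNA.723 and snoZ30 overlap an annotated gene on the other strand.

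snoRNAs are nucleolar guide RNAs that direct the chemical modification of rRNA and some of its cleavages. Box C/D snoRNAs carry a C box (TGATGA in the gene) near the 5′ end and a D box (CTGA) near the 3′ end, and with fibrillarin, Nop56, Nop58 and Snu13 they guide ribose methylation. Box H/ACA snoRNAs end in an ACA a few bases before the 3′ end, and with Cbf5, Gar1, Nhp2 and Nop10 they guide pseudouridylation. U3 and U14 act in the cleavage of the rRNA precursor. Shorter RNAs derived from snoRNAs have been described in many eukaryotes, often from one end of the parent RNA.

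The genes that the results turn on are printed 5′ to 3′, with the listed windows in capitals, so that the place of the reads can be seen. Where a window ran past the annotated gene, the bases beyond it are included, and the coordinates are those of the printed stretch. snoZ15, the only snoRNA gene in the region lists of the strains, lies at chrII:1756122-1756222 on the minus strand.
snoZ15: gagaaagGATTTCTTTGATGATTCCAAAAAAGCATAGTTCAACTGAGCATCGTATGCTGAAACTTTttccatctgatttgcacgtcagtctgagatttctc
The next 5 genes had the highest ratios of ABP1d to WT among genes with at least 20 reads. They are snoR47 (chrII:3654328-3654416, minus strand), snoZ3 (chrI:527624-527713, plus strand), sno20 (chrII:2411190-2411361, plus strand), snoU18 (chrII:2720646-2720733, minus strand) and snoR38 (chrI:5144133-5144216, plus strand), and in each the capitals fill the 3′ part.
snoR47: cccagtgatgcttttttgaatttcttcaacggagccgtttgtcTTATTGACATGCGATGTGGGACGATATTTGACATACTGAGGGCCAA
snoZ3: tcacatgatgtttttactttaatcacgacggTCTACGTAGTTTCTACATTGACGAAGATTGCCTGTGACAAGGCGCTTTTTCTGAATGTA
sno20: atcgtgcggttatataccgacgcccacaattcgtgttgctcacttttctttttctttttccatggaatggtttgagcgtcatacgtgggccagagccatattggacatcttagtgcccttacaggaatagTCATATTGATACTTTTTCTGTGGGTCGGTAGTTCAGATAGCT
snoU18: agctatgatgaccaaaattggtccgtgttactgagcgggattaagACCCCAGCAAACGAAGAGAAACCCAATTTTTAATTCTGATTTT
snoR38: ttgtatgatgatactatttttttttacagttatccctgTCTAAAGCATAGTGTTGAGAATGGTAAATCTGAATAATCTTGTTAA
A further 3 genes are snoZ7 (chrI:526937-527045), snoZ16 (chrI:1234963-1235050) and snr79 (chrI:2705950-2706045), all on the plus strand. By the deposited totals each held a lower window towards the 5′ end and a higher one towards the 3′ end.
snoZ7: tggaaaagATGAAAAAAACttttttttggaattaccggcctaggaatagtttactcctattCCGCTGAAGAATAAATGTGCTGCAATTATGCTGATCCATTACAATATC
snoZ16: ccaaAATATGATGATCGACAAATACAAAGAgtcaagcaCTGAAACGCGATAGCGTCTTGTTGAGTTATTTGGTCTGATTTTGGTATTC
snr79: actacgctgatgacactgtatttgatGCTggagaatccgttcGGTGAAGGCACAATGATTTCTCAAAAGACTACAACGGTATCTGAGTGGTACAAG
snoR69b (chrI:4154912-4155012, plus strand), the best covered gene that was lower in ABP1d, is shown with its namesake snoR69 (chrI:5387559-5387652, plus strand), followed by the box H/ACA gene snR10 (chrIII:992428-992602, plus strand) and by snR41 (chrI:1200168-1200253, plus strand), whose windows at the 5′ end were lower.
snoR69b: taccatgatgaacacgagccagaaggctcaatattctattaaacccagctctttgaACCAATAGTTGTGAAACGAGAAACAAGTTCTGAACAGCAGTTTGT
snoR69: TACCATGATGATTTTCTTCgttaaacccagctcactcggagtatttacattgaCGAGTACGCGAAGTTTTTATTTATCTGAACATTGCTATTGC
snR10: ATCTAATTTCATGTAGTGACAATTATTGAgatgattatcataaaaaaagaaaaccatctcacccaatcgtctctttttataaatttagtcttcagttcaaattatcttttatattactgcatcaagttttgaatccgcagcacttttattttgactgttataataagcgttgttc
snR41: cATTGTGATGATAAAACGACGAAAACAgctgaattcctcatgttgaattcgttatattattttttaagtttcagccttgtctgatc

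The windows on snoRNA genes were mostly higher in ABP1d by the deposited totals. Of the 45 windows, 35 were higher and 10 lower (77.8% higher), beside 82.9% higher and 17.1% lower of all 4012 listed windows, or 72.7% higher with equal windows counted once. At least 2-fold higher were 28 windows and at least 2-fold lower 8, where 79.9% and 11.3% of all windows passed those folds. The median log2 ratio of the snoRNA windows was 1.37, against 2.09 over all windows, 2.03 over the 14 windows on spliceosomal snRNA genes, 1.84 over the 177 on tRNA genes and 1.25 over the 37 on 5S rRNA genes. The share of higher windows on snoRNA genes was thus near the background of the table by the deposited totals, and there it is not a result about snoRNAs. Summed over the 45 windows, 67045 reads in ABP1d stood against 17358 in WT, which were 0.281% and 0.12% of the totals, a ratio of 2.35 (95% interval 2.31 to 2.39) that lay below 1 under 3 of 5 other scalings.

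Since the direction of most windows depends on the scaling, each was examined under those 5 scalings. Leaving the windows on the large rRNA repeats out of the totals shifted every log2 ratio by -0.66 and left 31 snoRNA windows higher and 14 lower, 68.9% higher against 81.3% of all listed windows. Leaving out 5S windows as well gave a shift of -0.27, with 34 higher and 11 lower, 75.6% against 82.5%. Centring on the 5S windows (shift -1.25) gave 24 and 21, 53.3% higher against 71.2%. Centring on the snRNA windows (shift -2.03) gave 10 and 35, 22.2% against 50.7%. Centring on all listed windows (shift -2.09) gave 9 and 35, 20% against 49.5%, with 1 window at the centre itself. Against all listed windows, repeated ones included, the snoRNA share was thus the lower one under each scaling, by more where windows were centred. With equal windows counted once it was the higher one by the deposited totals, 77.8% against 72.7%. Shares with equal windows counted once are not given for the other scalings, and no difference was tested. All 5 shifts are negative, and the 10 lower windows stayed lower under each of them. Each scaling shifts all log2 ratios by the same amount, so which genes stay higher follows from their ratios and is no separate support. Among genes with at least 20 reads, those with the highest ratios (snoR38, snoU18, sno20, snoZ3 and snoR47) stayed higher under each. So did snr62 and snoR68 on fewer reads, and the snoR61 windows with ratios of 4.93 and 4.99, though not the sum of snoR61.

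**Figure D1:**
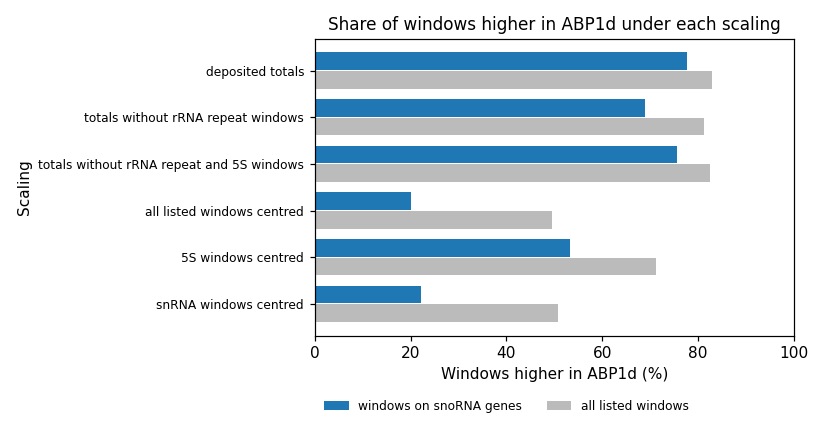
Percentage of windows higher in ABP1d than in WT for the 45 windows on snoRNA genes and for all 4012 listed windows, under the deposited totals and 5 other scalings. The snoRNA share runs from 77.8% with the deposited totals to 20% with all listed windows centred, and is the smaller of the pair under each of the 6 scalings. With equal windows counted once, 72.7% of the listed windows are higher by the deposited totals, which is below the snoRNA share.

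snoZ15 held most of the snoRNA reads. Its single window covered positions 8 to 66 of the 101-base gene (positions are counted from 1 at the 5′ end of the annotated gene) and had 39790 RPKM in ABP1d and 16635 in WT. Those were 55913 and 14198 reads, 83.4% of the snoRNA reads in ABP1d and 81.8% in WT. The ratio was 2.39 (2.35 to 2.44), and it was 0.563 with all listed windows centred and 0.584 with snRNA windows centred. The window took in the C motif at position 16 and ended before the D motif at position 90. In the region list of ABP1d, snoZ15 was the region at 1756167 to 1756215, with 47905 RPKM, place 65 of 309 by RPKM. The WT region at 1756158 to 1756215 had 16922 RPKM, place 149 of 190. No other snoRNA gene had a region in either list, and the same held at the common lower limit of both lists. Without snoZ15, the remaining 44 windows held 11132 reads against 3160, a ratio of 2.14 (2.06 to 2.23). snoZ15 lies within an intron of pfd1, and the files do not show whether its reads come from the snoRNA or from the host transcript.

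**Figure D2:**
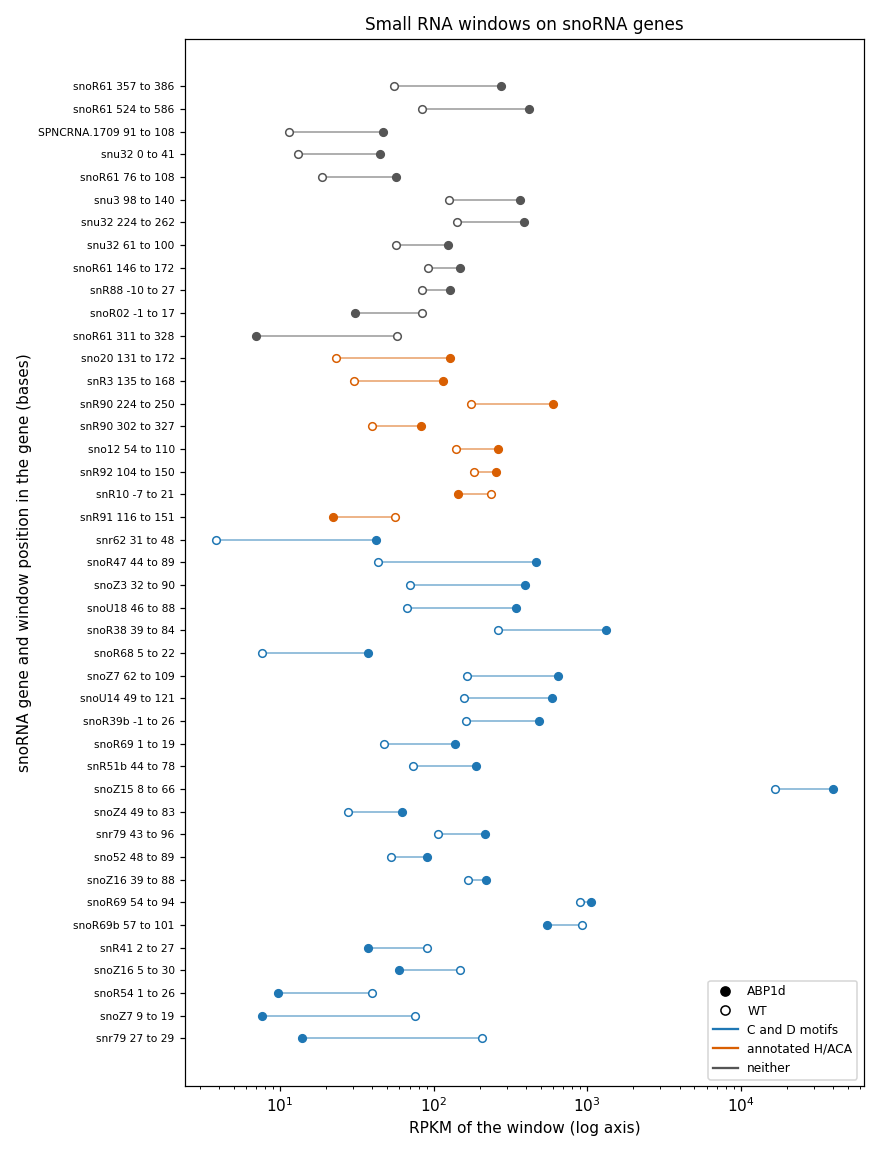
RPKM (log axis) of the 43 windows on snoRNA genes other than primary transcripts in ABP1d (filled) and WT (open), 1 row per window with its positions in the gene, coloured by box type. By the deposited totals 33 windows are higher in ABP1d and 10 lower. With those found only on primary transcripts, 35 of the 45 windows (77.8%) are higher, beside 82.9% of all listed windows. Centring on snRNA or all listed windows turns most of the snoRNA windows lower. snoZ15 stands at 39790 and 16635 RPKM, far above all others.

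The annotation states a box type for few genes. The product names give box H/ACA for 19 genes and C/D for 1, snoZ30, which had no window. For the rest the sequence was searched, on the strand of the gene, for TGATGA with at most 1 mismatch in the first 25 bases together with CTGA in the last 20 bases. Both motifs were present in 27 further genes, 17 of them with an exact TGATGA. Of all 84-base tiles of the genome on both strands, 0.721% held such a pair. Of the 19 annotated H/ACA genes, 14 held ACA followed by 2 to 4 last bases, which 5.01% of the tiles did. A match describes the sequence and is no proof of the type, and 12 genes had neither annotation nor both motifs.

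Genes with both C and D motifs had 23 windows on 19 of 27 genes. By the deposited totals 17 were higher and 6 lower, 73.9% higher beside 82.9% of all listed windows, or 72.7% with equal windows counted once. With snRNA or all listed windows centred, 6 were higher and 17 lower, and the split is not read as a trait of the type. These genes held 63488 reads against 16417, a ratio of 2.35 (2.31 to 2.39), and of 2.07 (1.98 to 2.17) without snoZ15. The highest was snoR47, a homolog by name of a methylation guide of budding yeast, whose window had 468 RPKM in ABP1d against 43.6 in WT. With 513 reads and 29, the ratio was 10.7 (7.39 to 16.2), which stayed above 1 under all 5 other scalings. snoZ3 had 393 against 70.3 RPKM, a ratio of 5.59 (4.28 to 7.42). snoU18, a box C/D guide also known in vertebrates, had 344 against 67.5 RPKM, a ratio of 5.09 (3.69 to 7.19). snoR38 had 1323 against 263 RPKM, a ratio of 5.03 (4.30 to 5.92), and after snoZ15 it held the most reads of any snoRNA gene in ABP1d, 1449. Among C/D genes with at least 20 reads, these 4 had the highest ratios.

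The ratios of snoU14, snoR39b and snR51b lay between 2 and 4 and turned below 1 when snRNA or all listed windows were centred. snoU14, which acts in 18S rRNA processing, had 590 against 159 RPKM, a ratio of 3.71 (3.15 to 4.39). snoR39b, in an intron of the ribosomal protein gene rpl701, had 484 against 163 RPKM, a ratio of 2.97 (2.27 to 3.93). snR51b had 190 against 73.1 RPKM, a ratio of 2.59 (1.80 to 3.82). sno52 was closer to even, with 91.0 against 52.7 RPKM and a ratio of 1.73 (1.14 to 2.67), and it was below 1 with 5S windows centred as well.

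The lower C/D genes were fewer. snoR69b had 545 RPKM in ABP1d but 925 in WT, from 584 and 602 reads, a ratio of 0.589 (0.525 to 0.661). Its namesake snoR69 had a 3′ window with 1061 against 899 RPKM, a ratio of 1.18 (1.06 to 1.31). Both windows lay over the D motif, and the difference between the genes was not tested. snR41 had 37.1 against 90.4 RPKM, with 23 and 34 reads and a ratio of 0.411 (0.231 to 0.718). snoR54, in an intron of gua1, had the lowest ratio of any gene with at least 20 reads, 0.243 (0.0772 to 0.663), on 6 and 15 reads.

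Annotated box H/ACA genes had 8 windows on 7 of 19 genes, and 12 genes had none. By the deposited totals 6 were higher and 2 lower, 75% higher beside 82.9% of all listed windows, or 72.7% with equal windows counted once. With snRNA or all listed windows centred, 1 was higher and 7 lower, and the split is not read as a trait of the type. Summed, 1416 reads stood against 481, a ratio of 1.79 (1.61 to 1.99) that was below 1 with 5S, snRNA or all listed windows centred. sno20, also named snR35 in the annotation, was the highest, with 128 against 23.0 RPKM and a ratio of 5.55 (3.19 to 10.4). snR3, a pseudouridylation guide by its name in budding yeast, had 116 against 30.5 RPKM, 94 and 15 reads, a ratio of 3.81 (2.19 to 7.07). snR90 had windows with ratios of 3.37 (2.60 to 4.42) and 2.07 (1.14 to 3.95), and its summed ratio was 3.14 (2.48 to 4.01). sno12 had 263 against 139 RPKM, a ratio of 1.89 (1.52 to 2.35), and snR92 had 255 against 182 RPKM, a ratio of 1.40 (1.13 to 1.74). Both sno12 and snR92 were below 1 with 5S, snRNA or all listed windows centred.

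Both lower H/ACA genes had windows that ran over an end of the gene, as did the higher snR3 and snR92, so this does not set the lower genes apart. snR10, which in budding yeast guides pseudouridylation and also helps 18S rRNA processing, had 143 against 238 RPKM in a window over its 5′ end. Its 99 and 100 reads gave a ratio of 0.601 (0.451 to 0.802). snR91 had 22.2 against 55.7 RPKM in a window over its 3′ end, a ratio of 0.398 (0.211 to 0.734) on 19 and 29 reads. Box C/D and H/ACA genes both held windows in either direction, and their summed ratios are a description of these pooled libraries, with no test of the difference.

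Each window covered only a part of its gene, at most 65.6%, in snoZ3. Among the 38 windows on snoRNA genes other than primary transcripts and snoR61 (653 bases as annotated), lengths ran from 3 to 73 bases with a median of 38.5. With each gene cut into 3 equal parts and windows placed by their centre, 13 lay in the 5′ part, 6 in the middle part and 19 in the 3′ part. Of the 19 windows in the 3′ part, 17 were higher in ABP1d and 2 lower (89.5% higher, median log2 ratio 1.46), with 7995 reads against 2276. Of the 13 in the 5′ part, 6 were higher and 7 lower (46.2% higher, median log2 ratio -0.73), with 863 reads against 417. All 6 windows of the middle part were higher. Over all listed windows 82.9% were higher, near the share of the 3′ part, or 72.7% with equal windows counted once. The 5′ windows were also shorter, with a median of 26 bases against 43 for the 3′ windows. All 7 lower windows of the 5′ part were under 30 bases. Its longer windows, on snR88 (38 bases) and snu32 (40 and 42 bases), were higher. In the 3′ part only the window of SPNCRNA.1709 (18 bases) was under 30. Place and length thus went largely together, and the part of window length and depth in this difference was not tested. Of the 18 windows under 30 bases on all snoRNA genes, 10 were higher, and of the 27 longer ones 25 were. Among windows with at least 100 reads, the 5′ part held 3 higher and 1 lower, so 6 of its 7 lower windows had fewer. Under each scaling the 3′ part held the larger share of higher windows of the pair, although the counts moved. With all listed windows centred, 5 of 19 and 1 of 13 were higher, beside 49.5% of all listed windows.

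**Figure D3:**
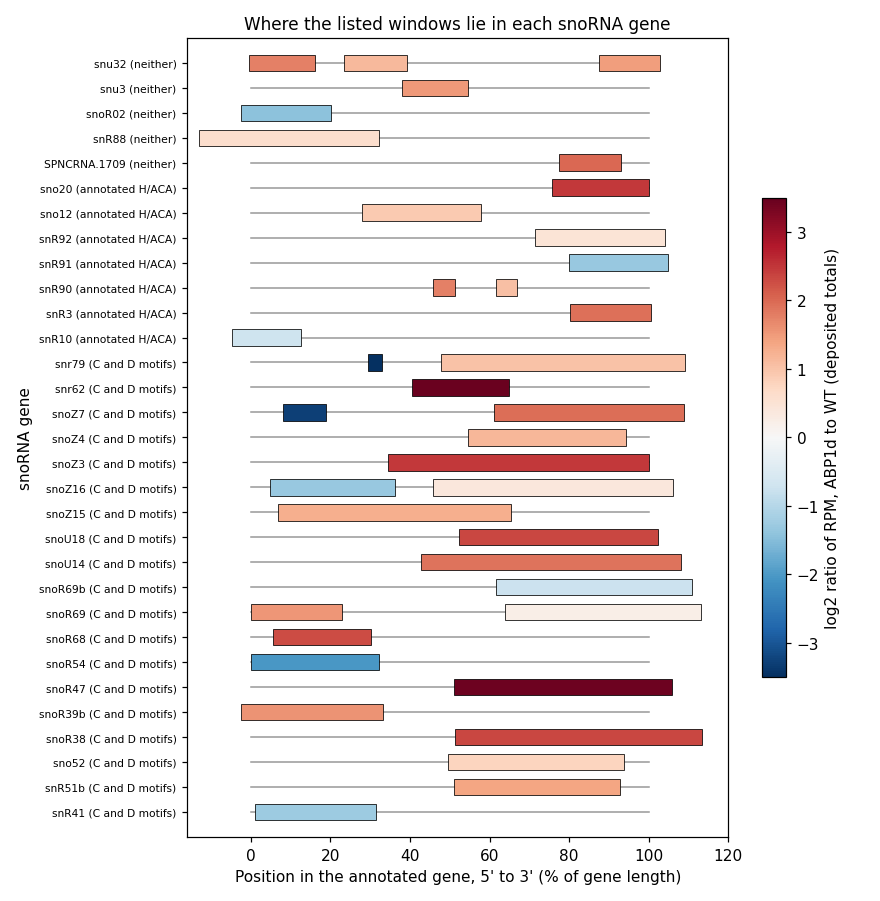
Place of each listed window along its annotated gene, from the 5′ end (0%) to the 3′ end (100%), coloured by the log2 ratio of ABP1d to WT under the deposited totals, for 38 windows on 31 genes. In the 3′ part (last of 3 equal parts) 17 of 19 windows are higher and in the 5′ part 6 of 13, beside 82.9% of all listed windows. Centring on all listed windows leaves 5 and 1 higher, beside 49.5% of all. The 5′ windows are also shorter, with a median of 26 bases against 43.

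The box motifs restate the place of the windows in the gene and are no separate support. The D motif was sought only in the last 20 bases and the C motif only in the first 25. In genes with both motifs, no window covered both. The D motif lay inside 12 windows, 11 of them higher and 1, in snoR69b, lower. The other 11 windows did not hold the D motif, and 6 of those were higher and 5 lower. The 7 windows that held the whole C motif were 4 higher and 3 lower. Of the 38 windows, 13 ran past the annotated 3′ end, by 1 to 11 bases, and 5 past the 5′ end, by 1 to 11 bases. These windows thus did not stop at the annotated ends. In the printed sequences of snoR69b, snoR69 and snoR38, the last 10, 11 and 10 bases lie past the annotated 3′ end.

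**Figure D4:**
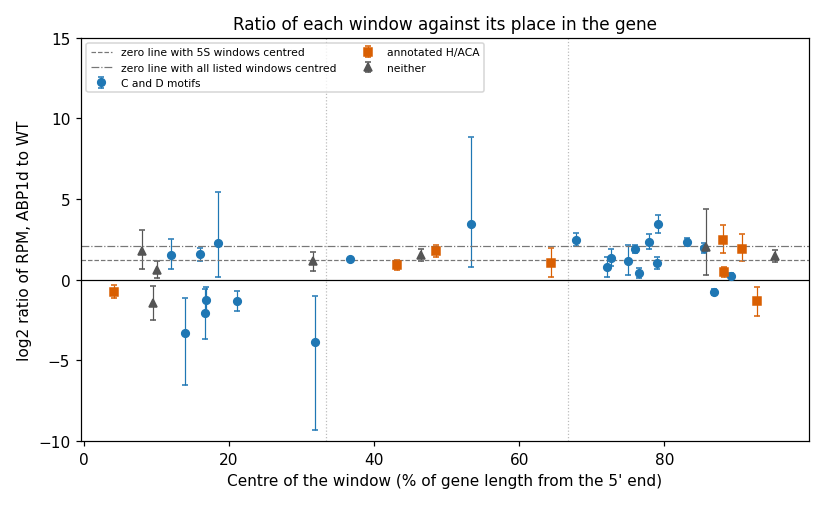
log2 ratio of RPM (reads scaled to the authors' total), ABP1d to WT, of 38 windows against the centre of the window in percent of the gene length, with exact 95% binomial intervals on reads as bars; dotted vertical lines cut the gene into 3 equal parts, and dashed lines show where zero would lie with 5S windows (1.25) or all listed windows (2.09) centred. Of the windows in the 5′ part 7 of 13 are lower, against 2 of 19 in the 3′ part and 17.1% of all listed windows. With all listed windows centred, 12 and 14 are lower, where 49.5% of all listed windows are higher. The 5′ windows are also shorter, with a median of 26 bases against 43.

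In 3 C/D genes the windows went in opposite directions within 1 gene by the deposited totals. A common scaling keeps the order of the windows but not the opposite directions. The higher windows had log2 ratios of 1.97 in snoZ7, 0.389 in snoZ16 and 1.02 in snr79. That of snoZ16 turned lower without rRNA repeat windows in the totals (shift -0.66). That of snr79 did so with 5S windows centred (-1.25), and that of snoZ7 with snRNA windows centred (-2.03). In snoZ7 the window at positions 9 to 19 had 7.63 against 75.4 RPKM, with 2 and 12 reads and a ratio of 0.101 (0.0110 to 0.455). Its window at 62 to 109 had 642 against 164 RPKM, a ratio of 3.91 (3.21 to 4.81). In snoZ16 the window at 5 to 30 had 59.7 against 149 RPKM, a ratio of 0.401 (0.258 to 0.619), and the window at 39 to 88 had 221 against 169 RPKM, a ratio of 1.31 (1.05 to 1.64). In snr79 a window of 3 bases at 27 to 29 had 1 against 9 reads, a ratio of 0.0675 (0.00154 to 0.487), and the window at 43 to 96 had 215 against 106 RPKM, a ratio of 2.03 (1.58 to 2.62). These genes were picked for holding windows in both directions, so the contrast is a description. The 5′ windows of snoZ7 and snr79 rest on few reads, and snoZ16 is the best covered case, with 37 and 56 reads in its 5′ window.

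Not every 5′ window was lower. snoR39b was covered only at its 5′ end (positions -1 to 26) and was higher, as given above. snoR69 had a 5′ window at positions 1 to 19 with 137 against 47.3 RPKM, a ratio of 2.90 (1.58 to 5.74), above its own 3′ window. snR88 had 128 against 83.7 RPKM in a window over its 5′ end, a ratio of 1.53 (1.08 to 2.20). On snoR02, 14 and 23 reads at the 5′ end gave a ratio of 0.370 (0.176 to 0.750).

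U3, the snoRNA required for early cleavages of the rRNA precursor, has the genes snu3 and snu32. snu32 (chromosome II, 3958832 to 3959086, minus strand) had windows at positions 0 to 41, 61 to 100 and 224 to 262 of its 255 bases, where 0 is the base before the gene. They had 45.0, 125 and 390 RPKM in ABP1d and 13.2, 57.0 and 142 in WT, with ratios of 3.42 (1.59 to 8.39), 2.19 (1.48 to 3.33) and 2.75 (2.15 to 3.55). Its 3′ end held the most reads, and its summed ratio was 2.64 (2.16 to 3.24). snu3 (chromosome I, 987570 to 987825, minus strand) had a single window at positions 98 to 140 of 256, with 365 against 127 RPKM and a ratio of 2.88 (2.25 to 3.71). Both genes were below 1 with snRNA or all listed windows centred.

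The annotated ends of snu3 and snu32 do not match each other. A local alignment placed all 255 bases of snu32 from 122 bases before the annotated start of snu3 to its position 134, with 234 of 255 aligned bases identical (91.8%). The last 122 annotated bases of snu3 lay beyond the alignment. The window with the most reads in each gene is printed whole, in capitals, to show the shared stretch (snu3 at chrI:987686-987728 and snu32 at chrII:3958825-3958863, both minus strand).
snu3 window: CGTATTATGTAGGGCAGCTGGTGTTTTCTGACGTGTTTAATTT
snu32 window: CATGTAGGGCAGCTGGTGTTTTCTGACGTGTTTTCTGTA
In the aligned stretch (chromosome I, 987692 to 987947) the snu3 window thus lies at positions 220 to 262, beside 224 to 262 in snu32, although it is a middle window by the annotation. A further 2 windows fall in that stretch outside the annotated gene, at 987855 to 987887 and 987907 to 987948. The first had 98.0 against 44.0 RPKM, a ratio of 2.23 (1.36 to 3.80). The second had 45 and 8 reads, exactly those of the first window of snu32. Whether reads that match both genes were counted at each was not tested, so neither U3 gene is support for the other. The counts and sums given here still hold the windows of both genes. The printed snu3 window counts in the middle part and that of snu32 in the 3′ part.

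Several snoRNAs are made from 1 longer transcript. The host transcript snoZ carries snoZ8, snoZ7, snoZ5, snoZ4 and snoZ3, of which snoZ7, snoZ4 and snoZ3 had windows and snoZ8 and snoZ5 had none. The summed ratio of snoZ7 was 3.55 (2.93 to 4.32), next to 5.59 for snoZ3. The primary transcript SPNCRNA.723 carries snR41, snR70 and snR51b. Its windows were those of snR41, lower, and snR51b, higher, and snR70 had none, so genes of 1 transcript stood on both sides by the deposited totals. The summed ratio of SPNCRNA.723 was 1.55 (1.17 to 2.07). SPNCRNA.901, the transcript of snR91, held the lower window of snR91 and a higher one at its own 3′ end with 162 against 61.4 RPKM, a ratio of 2.63 (1.68 to 4.29), and the sum was 1.41 (1.01 to 1.98). SPNCRNA.1394 had no window other than that of snR3.

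By place in the genome and by the deposited totals, windows on snoRNA genes inside introns of coding genes were 5 higher and 1 lower, on 6 of 12 such genes, and here as in the other arrangements fewer were higher with snRNA or all listed windows centred. Those inside a longer noncoding transcript were 6 higher and 3 lower, on 8 of 15. Genes of their own had 22 higher and 6 lower, on 18 of 32. In that order 83.3%, 66.7% and 78.6% were higher, beside 82.9% of all listed windows, or 72.7% with equal windows counted once. Nothing is read from these shares. Each arrangement held genes with no window. snoR61, annotated over 653 bases, had 5 windows with a summed ratio of 3.64 (3.08 to 4.33). Of these, 4 were higher, with ratios from 1.62 to 4.99, and 1 at positions 311 to 328 was lower on 3 and 15 reads, a ratio of 0.121 (0.0225 to 0.429).

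The remaining 6 genes with windows, among them snoZ4, had 16 to 52 reads in ABP1d and 1 to 14 in WT. All 6 ratios were above 1 by the deposited totals, from 2.26 to 10.9. Those of snoR68 and its host SPNCRNA.1650 are the same value, 4.86, from 1 shared window. With snRNA or all listed windows centred, snoZ4 and SPNCRNA.1709 were below 1, and SPNCRNA.7474 was at 1 with all listed windows centred. The top of that range is snr62, where 18 reads stood against 1, with an interval of 1.73 to 456. No window on a snoRNA gene was listed at 0 in either strain, and none contained 15 or more A, or 15 or more T, in a row.

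Genes for snoRNP proteins and snoRNA processing factors gave few windows, as did coding genes at large. Of 23 listed names, 22 were in the annotation, and 2 of those had a window (9.09%), beside 792 of all 5113 coding genes (15.5%), so nothing is read from the count. gar1, which encodes a core H/ACA protein, had a window with 18 against 3 reads, a ratio of 3.64 (1.06 to 19.3). rvb1, which encodes an ATPase that helps snoRNP assembly, had a window of 40 bases with 20707 and 23733 RPKM, a ratio of 0.872 (0.854 to 0.892), and this window holds an A/T run. The genes of fibrillarin (fib1), nop56, nop58, snu13, cbf5, nhp2 and nop10 had no listed window.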

How the data were processed

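Small RNA libraries made from total RNA were read for 38 cycles. The authors deposited RPKM values and p-values per region, without headers and pooled over the 2 libraries of a strain. Per the submitters' processing notes, Bowtie 0.12.5 was used; its settings, the build, the filters, the treatment of repeated matches and the authors' test are unstated here. The comparison's columns were assigned by equal values at shared coordinates (7 of ABP1d, 124 of WT, 0 crossed). RPKM times length gave whole reads in 100% of windows, to within 1e-06; listed reads were 99.6% and 99.7% of the totals, whose definition is not given. What each library contributed is unknown.

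Coordinates were used on ASM294v3 after a check: 169 of 304 ABP1d regions held an A/T run of at least 15 bases in place and 2 after a shift of 1000 bases. Sequences are from RefSeq ASM294v3, and starts are printed 1-based. Each window was counted once, on the snoRNA gene inside a primary transcript where there was one. Ratios compare reads divided by the authors' total, with exact binomial intervals; a floor of 3 reads for values of 0 was not needed. U3 genes were aligned with Biopython 1.88; SciPy 1.17.1 and pandas 2.3.3 were used otherwise. Neither strain has values per library, so no test was made and edgeR, planned for counts per library, was not run. Tested on simulated data for 4012 windows, the scripts recovered 100% of the reads, and 97.2% of the intervals contained the true ratio. The simulated reads had counting error only, with no spread between libraries and no choice of windows by p. That share therefore does not describe the listed windows.

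Members and lists were chosen with earlier results of these data known. Named genes were snu3, snoZ15 and snoR69b, genes in a strain list, with at least 100 reads or with 0 reads in 1 strain, and the 5 highest and 5 lowest ratios with at least 20 reads. snr62, snoZ4 and the host genes were named after their values were seen. Alternatives covered overlap, minimum reads, deposited p, scaling, A/T runs, type and window place.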

Additional observations from a re-analysis of the deposited data

How the results depend on the processing

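No paired analysis was possible because each strain has 1 pooled value and no library has its own; for the same reason no library could be left out. The scaling changed most. With all listed windows centred, 9 snoRNA windows were higher and 35 lower, 2 and 19 past 2-fold, and the summed ratio was 0.552. With snRNA windows centred, these were 10 and 35, 2 and 18, and 0.573. With 5S windows centred, 21 were lower, 9 were past 2-fold higher, and the ratio was 0.986. Totals without rRNA repeat windows gave 16 past 2-fold higher and a ratio of 1.48, and totals also without 5S windows gave 1.94. The ratio was 2.14 without snoZ15 and 2.42 at a deposited p of at most 0.001, where 22 windows were higher and 5 lower, 3 of them past 2-fold. Keeping genes with a box type left 23 higher. At least 20 reads left 5 windows past 2-fold lower, and at least 100 reads left 2 lower and 0 past 2-fold.

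By the annotation alone no C/D gene had a window (0), and by motifs 17 C/D windows were higher. C/D windows were 6 higher and 17 lower with all listed or with snRNA windows centred, and 11 were lower with 5S windows centred. The C/D ratio was 0.552, 0.574 and 0.987 with all listed, snRNA and 5S windows centred, 1.49 without rRNA repeats in the totals, and 1.95 also without 5S. At least 100 reads left 1 lower C/D window. H/ACA windows were 1 higher and 7 lower with all listed or snRNA windows centred, and 3 higher and 5 lower with 5S windows centred. Their ratio was 0.421, 0.437 and 0.751, and 1.13 and 1.48 under the changed totals. At least 100 reads, or the ACA motif in place of the annotation, left 1 lower.

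Of the named genes, 5 were above 1 with all listed or snRNA windows centred, and 16 with 5S windows centred. Those that turned below 1 with 5S windows centred were sno52, snr79, sno12, snoZ16, snR88, snoR69, snR92, SPNCRNA.723 and SPNCRNA.901. The last 6 of these were below 1 also without rRNA repeats in the totals, from 0.647 for snoZ16 to 0.979 for SPNCRNA.723. With all listed and with snRNA windows centred, respectively, the ratio was 0.834 and 0.867 for snoZ7, 0.676 and 0.702 for snu3, 0.610 and 0.633 for snR51b, 0.738 and 0.766 for snR90, and 0.895 and 0.930 for snR3 and its host SPNCRNA.1394. It was 0.872 and 0.906 for snoU14, 0.563 and 0.584 for snoZ15, 0.699 and 0.726 for snoR39b, 0.857 and 0.890 for snoR61, and 0.621 and 0.645 for snu32.

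The scalings were applied to window position after seeing the data. The 5′ part held 1 higher and 12 lower, and the 3′ part 5 higher and 14 lower, with all listed or snRNA windows centred. The 3′ part held 11 higher and 8 lower with 5S windows centred, and 5 lower without rRNA repeats in the totals. At least 100 reads left 3 higher and 1 lower in the 5′ part and 1 lower in the 3′ part. For the snoRNP protein genes, 0 windows were higher at 100 reads or more, 0 higher and 2 lower with all listed or snRNA windows centred, and 0 lower without A/T runs. Pooling limits every value: the spread between libraries is unknown, and windows of few reads carry wide intervals.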
